A study of Mus musculus with 19 samples.

Results

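Clone-derived gene names with large differences between strains, 5 in all, were followed on mouse whole-genome arrays of pancreatic islets of the mouse strains C57BL/6 (B6, given as C57BL6/J in the design text) and C57BLKS/J (BLKS): 6330403K07Rik, 5830417I10Rik, AK046255, AW822216 and 2310015B20Rik. They were found by the gene name that the scanner files give each probe, and they are 5 of 29742 names and 8 of 41174 probes, control spots left out. The names had been picked for strong differences between the strains in these same data, so their strain gaps are given as a description and without a test. All 8 probes were among the 29332 that were well above background in at least 4 mice, and their responses to glucose were tested within that whole set.

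Islets were isolated from mice aged 12 weeks, kept for 48 h in 11 mM glucose and then cultured for 24 h in 5 mM (low) or 20 mM (high) glucose. The groups were 5 B6 and 5 BLKS mice in low glucose and 5 B6 and 4 BLKS mice in high glucose, and islets of different animals were not pooled. Each mouse was labelled with both dyes on a pair of 2-colour arrays, in most cases against a mouse of the other strain. No other treatment is named. BLKS is an inbred strain that descends mainly from B6 with segments of DBA origin, so a strain gap compares whole genomes and not single alleles.

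Names of this kind were given to full-length cDNA clones and expressed sequence tags before a gene was characterised, and many were later replaced by gene symbols. 2310015B20Rik is now Mrln, the gene of myoregulin, a micropeptide of the sarcoplasmic reticulum that was long listed as a noncoding RNA and that inhibits the calcium pump SERCA in skeletal muscle. AW822216 is now Obsl1, obscurin-like 1, a cytoskeletal adaptor with immunoglobulin domains that also takes part in a complex with the ubiquitin ligase subunit CUL7. For 6330403K07Rik, 5830417I10Rik and AK046255 no function is stated here.

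The current mouse annotation (RefSeq, GRCm38.p6) held 4 of the 5 names, 2 of them under another symbol, and did not list AK046255. It gives 6330403K07Rik as a protein-coding gene at chr11:71031941-71033617, with UGS148 among its synonyms, and the scanner files describe the probe (A_51_P417251) by the mRNA of that RIKEN clone. 5830417I10Rik is given as a transcribed pseudogene at chr3:88777057-88829371. Its probe A_51_P443443 was described as a thymus cDNA for a hypothetical protein with a PAH2 domain, the paired amphipathic helix known from Sin3 proteins. Its probe A_51_P368151 was described as the mRNA of mKIAA1606 protein, and the scanner files list for it the clone 2610100B20, which the current annotation places under Gon4l, the adjacent gene. The name 5830417I10Rik is therefore uncertain for that probe.

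AK046255 (probe A_52_P137500) was described as a cDNA of the corpora quadrigemina, clone B230361M20, whose product was given as an unknown expressed sequence tag. Obsl1 lies at chr1:75485825-75506486 and had 3 probes under AW822216. Probes A_52_P286002 and A_52_P661982 were described by the reference mRNA of that gene, and A_51_P479583 by a testis cDNA for a hypothetical protein with an immunoglobulin domain. Mrln lies at chr10:70204664-70219711, and its probe A_51_P199352 was described as a tongue cDNA for a hypothetical protein.

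The bases just upstream are shown for the member with the largest strain gap and for Mrln, the member with the largest glucose response over both strains. They come from RefSeq GRCm38.p6, which is the genome of a B6 mouse, and each holds the 250 bases before the annotated start, read 5′ to 3′ in the direction of the gene. Capitals mark a CCAAT box (CCAAT on either strand).
6330403K07Rik, chr11:71033618-71033867, minus strand: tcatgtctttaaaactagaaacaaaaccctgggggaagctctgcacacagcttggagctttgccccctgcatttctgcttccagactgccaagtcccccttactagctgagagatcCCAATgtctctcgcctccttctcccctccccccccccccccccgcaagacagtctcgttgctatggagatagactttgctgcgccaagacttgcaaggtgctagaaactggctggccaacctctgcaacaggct
Mrln (2310015B20Rik), chr10:70204414-70204663, plus strand: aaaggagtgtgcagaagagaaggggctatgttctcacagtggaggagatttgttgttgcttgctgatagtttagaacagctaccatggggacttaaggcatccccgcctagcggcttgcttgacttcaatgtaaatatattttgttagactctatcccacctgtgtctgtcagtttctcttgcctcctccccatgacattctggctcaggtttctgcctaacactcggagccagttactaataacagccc
The first stretch held 1 CCAAT box, which 33.8% of all 32851 upstream stretches of this length hold, and the second none. Neither held a TATA box (TATAAA, in 12.4% of all), a GC box (GGGCGG, in 32.7%) or an E-box (CACGTG, in 6.02%), each searched on both strands. The corresponding BLKS bases were not used here.

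Before any result, 2 low-glucose libraries went against their labels. Over 103 probes outside the members, scaled so that 0 is the B6 and 1 the BLKS level, the one labelled B6 low glucose 4 lay at 1.003 and the one labelled BLKS low glucose 5 at -0.05. The other libraries of low glucose lay at -0.07 to 0.02 (B6) and 0.93 to 1.01 (BLKS). Results are given with both libraries under their labels and without both. The hormone probes of Ins1, Ins2, Iapp, Gcg and Sst had mean log2 signals of 15.97 to 15.99, the first 4 saturated on all 40 channels and Sst on 30. The median log2 processed signal of the negative control spots was 5.67 to 5.93 over the channels, before scaling between arrays. The spread of single control spots is not given. Background was not subtracted, so differences at probes near that level are understated.

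6330403K07Rik had the second-largest difference between the strains in high glucose of all 29332 probes, with BLKS higher. At probe A_51_P417251 the log2 signal was 8.73, 8.65, 8.48, 8.87 and 7.56 in B6 mice 1 to 5 in high glucose. The BLKS mice 1 to 4 had 12.63, 12.30, 12.51 and 12.62. Every BLKS mouse lay above every B6 mouse, and B6 mouse 5 lay below the other B6 mice. The gap was 4.06 on the log2 scale (standard error 0.94), or 16.7-fold, and its standard error was 0.20 without both libraries against their labels, since all groups share the estimate of the spread.

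In low glucose, A_51_P417251 read 8.74, 9.22, 9.09, 13.18 and 8.58 in the libraries labelled B6 and 13.05, 12.90, 12.92, 12.84 and 7.95 in those labelled BLKS. Under those labels B6 low glucose 4 was the brightest of all 19 mice, and BLKS low glucose 5 lay below every other low-glucose library. With the labels as given the gap was 2.17 (standard error 0.89). Without both libraries the groups did not overlap and the gap was 4.02 (standard error 0.21), or 16.2-fold, within 0.04 of the gap in high glucose.

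The level of 6330403K07Rik in B6 islets also moved with the mouse on the other channel of the array. In 7 sets of arrays where a mouse with a low signal shared its arrays with a mouse of high signal, Cy5 read higher than Cy3 by 0.67 to 0.93 and the means were 8.48 to 9.22. Another 4 readings were of mice of low signal that shared arrays with each other. These were B6 high glucose 5 with B6 low glucose 1, and B6 low glucose 5 with the library labelled BLKS low glucose 5. There the dyes differed by -0.07 to 0.01 and the means were 7.56 to 8.58. Both mice of each such pair are counted, so these readings are not separate sets of arrays. B6 low glucose 1 was hybridised in both ways, and the same RNA read 9.18 beside BLKS low glucose 1 and 8.30 beside B6 high glucose 5. Against B6 high glucose 5 alone, the only B6 mouse in high glucose with no BLKS mouse on its arrays, the gap was 4.96, or 31.2-fold, a value chosen after its data were seen.

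The 5830417I10Rik probe A_51_P443443 ran the other way, with 8.64, 8.77, 8.64, 8.78 and 8.92 in B6 and 6.41, 6.32, 6.31 and 6.20 in BLKS islets in high glucose. The groups did not overlap. The gap was -2.44 (standard error 0.51, and 0.08 without both libraries), with BLKS 5.43-fold lower. In low glucose the libraries labelled B6 read 8.66, 8.60, 8.70, 6.04 and 8.74 and those labelled BLKS 6.46, 6.34, 6.31, 6.02 and 8.78. Library 4 of B6 and library 5 of BLKS again took the level of the other strain. The gap was -1.36 (standard error 0.48) as labelled and -2.39 (standard error 0.08) without both. Beside a mouse of high signal, low signals at this probe were 6.20 to 6.46, with Cy5 above Cy3 by 0.07 to 0.42. B6 low glucose 4 and BLKS low glucose 4 shared arrays, read 6.04 and 6.02, and had dyes that differed by 0.03 and -0.04. The part of the array mates in the gap was not tested. The low signals lay near the negative controls. Of 40 channels 38 were well above background, but in Cy3 that call was also given to 83.9% of negative control spots. In Cy5 it was given to 5 of 6 channels labelled B6 and 4 of 5 labelled BLKS in low glucose. The Cy5 channels of B6 low glucose 4 and BLKS low glucose 4 did not get it. The ratio is a lower estimate, since no background was subtracted.

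A_51_P368151, the probe for which the name 5830417I10Rik is uncertain, showed no such gap. Its signals lay between 9.32 and 9.80 in all 19 mice, with a strain difference of 0.03 in high glucose (95% interval -0.14 to 0.20) and 0.06 in low glucose (-0.10 to 0.22). The Gon4l probe of the array (A_52_P629451) lay near the negative controls, with group means of 6.13 to 6.16, and says little on a gap of that gene (-0.02 in high glucose, standard error 0.05). Thus the 2 probes under this name gave different results, and the strain gap rests on A_51_P443443 alone.

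AK046255 was read by a single probe, A_52_P137500, and was lower in BLKS islets. In high glucose the B6 mice had 8.36, 8.36, 8.52, 8.31 and 8.32 and the BLKS mice 6.08, 6.01, 6.11 and 5.98. No mouse of a strain reached the range of the other. The gap was -2.33 (standard error 0.47, and 0.06 without both libraries), or 5.02-fold. In low glucose the values were 8.14, 8.41, 8.39, 6.05 and 8.30 under the B6 label and 6.09, 5.91, 6.03, 6.08 and 8.46 under the BLKS label, a gap of -1.34 (standard error 0.44) that became -2.28 (standard error 0.06) without both libraries. The low signals lay near the medians of the negative controls. In both dyes, 2 of 5 mice labelled BLKS in low glucose were well above background, compared with 4 of 4 in high glucose. Without library 5 of BLKS the former was 1 of 4. With no background subtracted, the ratio is a lower estimate.

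2310015B20Rik (Mrln) had a smaller gap on a bright probe. At A_51_P199352 the B6 mice read 12.16, 12.35, 11.97, 12.06 and 12.08 and the BLKS mice 11.38, 11.19, 11.39 and 11.15 in high glucose. All 4 BLKS mice lay below all B6 mice, and the gap was -0.85 (standard error 0.15), or 1.80-fold. The low-glucose values were 12.95, 13.03, 12.83, 12.27 and 12.88 in libraries labelled B6 and 12.76, 12.38, 12.25, 12.20 and 12.97 in those labelled BLKS. They overlapped as labelled, with a gap of -0.28 (standard error 0.15), and did not overlap without both libraries, with a gap of -0.53 (standard error 0.10).

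The 3 Obsl1 probes under AW822216 gave gaps well below 2-fold. A_51_P479583 read 7.96, 7.85, 7.92, 7.66 and 7.80 in B6 and 8.62, 8.53, 8.38 and 8.20 in BLKS mice in high glucose. Its low-glucose values were 7.61, 7.67, 7.45, 7.74 and 7.30 under the B6 label and 8.30, 7.89, 8.24, 8.14 and 7.80 under the BLKS label. The BLKS mice were higher without overlap at both concentrations, with gaps of 0.60 (standard error 0.11) in high and 0.52 (standard error 0.10) in low glucose, or 1.51-fold and 1.43-fold. A_52_P286002 ranged only from 6.48 to 6.85 over all mice, with gaps of 0.12 and 0.05, and A_52_P661982 from 6.68 to 7.35, with gaps of 0.17 and 0.14. Without both libraries the low-glucose means at A_51_P479583 were 7.51 in B6 and 8.14 in BLKS (7.56 and 8.07 with all mice). Those means without both libraries were 6.54 and 6.62 at A_52_P286002 and 6.99 and 7.20 at A_52_P661982. The gap of this gene thus differed between its probes.

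**Figure D1:**
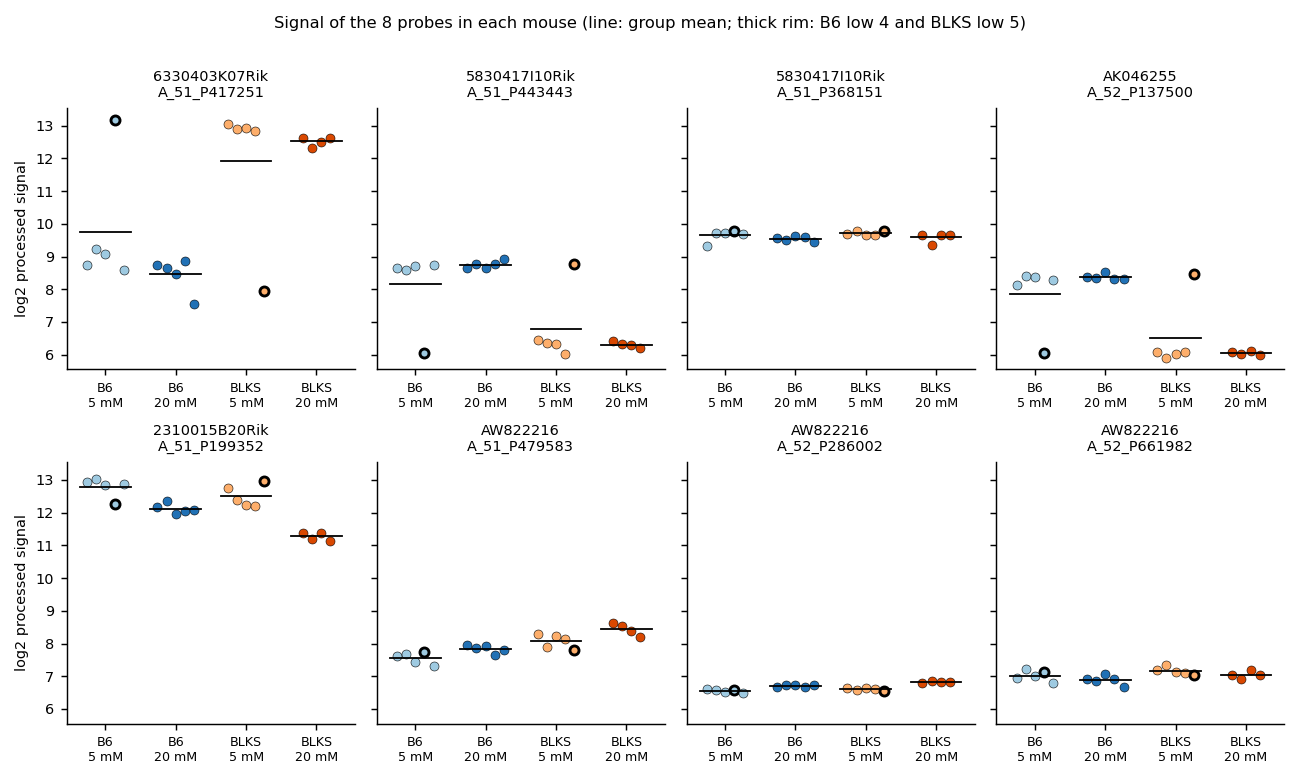
Log2 processed signal of each of the 8 probes, with a point for each of the 19 mice, a horizontal line for each group mean and a thick rim for the libraries labelled B6 low 4 and BLKS low 5. At A_51_P417251, A_51_P443443 and A_52_P137500 the strains form separate bands and the rimmed points lie in the band of the other strain, while the bands of A_51_P368151 lie between 9.32 and 9.80 in every group.

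Counted over the 8 probes, 3 differed by over 2-fold between the strains in high glucose, compared with 0.365% of all probes, and 6 had groups that did not overlap, compared with 14.4% of all probes. In low glucose 3 were over 2-fold (0.0648% of all probes) and 1 did not overlap (1.2%). Without both libraries, 5 did not overlap in low glucose (18.0%). The names were chosen by these gaps, and nothing is read from these counts.

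Since B6 and BLKS mice shared arrays, the gap could also be taken within each array. Over the 14 arrays that held a BLKS and a B6 mouse other than these libraries, A_51_P417251 was higher in BLKS on 14, by 3.31 to 4.42. A_51_P443443 and A_52_P137500 were lower on 14, by -2.86 to -2.02 and -2.53 to -2.08. A_51_P199352 was lower on 14, by -1.18 to -0.12, and A_51_P479583 higher on 14, by 0.19 to 0.91. The pairs holding 1 of those libraries read -0.34 and -0.64 at A_51_P417251 and -0.02 and 0.04 at A_51_P443443, so that neither pair showed the gap of the other arrays. Each pair of mice was read on 2 dye-swapped arrays, so the arrays are not separate mice. The names were chosen by their strain gaps, and nothing is read from the counts of arrays.

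**Figure D2:**
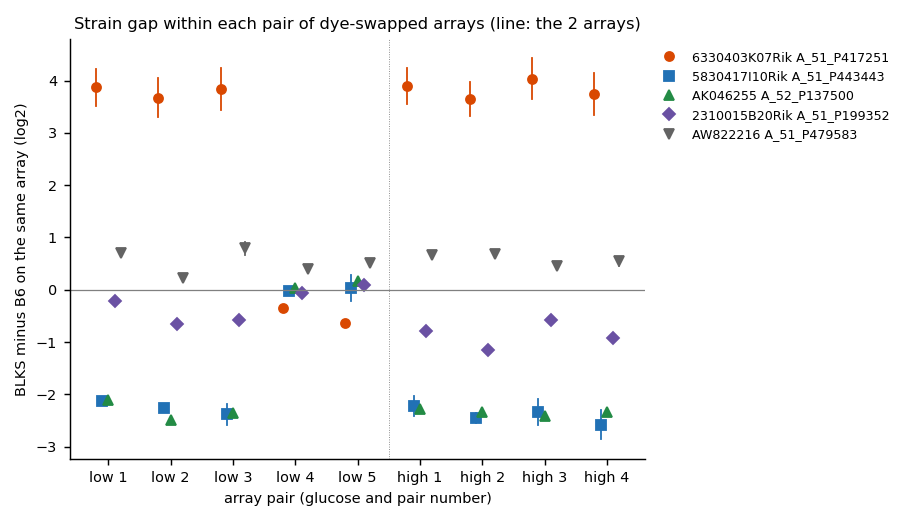
BLKS minus B6 on the same array (log2) at 5 probes for the 5 low-glucose and 4 high-glucose pairs of dye-swapped arrays, with a marker for the mean of a pair and a line between its arrays. At A_51_P417251 the pairs low 1 to 3 and high 1 to 4 lie between 3.65 and 4.03 on average, and pairs low 4 and low 5, which hold the libraries labelled B6 low 4 and BLKS low 5, lie at -0.34 and -0.64.

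Whether these transcripts also answered to glucose was tested with limma over all probes, with Benjamini-Hochberg adjustment. Over both strains, 3 of the 8 probes were called, 2 rising and 1 falling, compared with 22.3% of all 29332 probes (10.8% rising and 11.5% falling). In B6 islets 2 were called (9.53% of all probes) and in BLKS islets 3 (11.6%). Without both libraries the counts were 4 over both strains (21.9%), 3 in B6 (12.2%) and 2 in BLKS (9.9%). The within-strain responses use the same high-glucose mice as the strain gaps and are not independent of them. Mice that shared arrays were mostly of the same glucose group, and limma and the permutation tests treated them as independent. Correlation between such mice, given with the processing, can make the p-values for glucose too small.

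Mrln fell with glucose in both strains. The mean log2 signal of A_51_P199352 went from 12.79 ± 0.30 (SD, n = 5 mice) to 12.12 ± 0.14 (SD, n = 5) in B6 and from 12.51 ± 0.34 (SD, n = 5) to 11.28 ± 0.13 (SD, n = 4) in BLKS islets. Over both strains the change was -0.95 (standard error 0.11, limma adjusted p = 4.31e-06), or 1.93-fold. It was -0.67 in B6 (standard error 0.15, limma adjusted p = 0.00626, exact permutation p = 0.0159, 2-sided) and -1.24 in BLKS (standard error 0.15, limma adjusted p = 5.1e-05, exact permutation p = 0.0159, 2-sided). The BLKS groups did not overlap, whereas in B6 library 4 of low glucose lay inside the range of the high-glucose mice.

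Without both libraries the fall of Mrln was -0.80 (standard error 0.10) in B6 and -1.12 (standard error 0.10) in BLKS, with no overlap in either strain. The response in BLKS minus that in B6 was -0.57 (standard error 0.21) with all mice and -0.32 (standard error 0.14) without both. This difference shares its mice with the strain gap that chose the member and was not tested. The study lists this transcript for its response to glucose, so the call is not independent evidence.

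The Obsl1 probes did not move together with glucose. A_51_P479583 rose by 0.32 over both strains (standard error 0.08, limma adjusted p = 0.00452), or 1.25-fold. In BLKS it rose by 0.36 (limma adjusted p = 0.0404) and lost the call without both libraries, at 0.29 (limma adjusted p = 0.0896). In B6 the change was 0.28 (limma adjusted p = 0.102) and was called without both, at 0.33 (limma adjusted p = 0.0343). A_52_P286002 rose by 0.19 over both strains (standard error 0.02, limma adjusted p = 7.93e-06), by 0.15 in B6 and by 0.23 in BLKS.

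For A_52_P286002 the high-glucose mice lay above all low-glucose mice of their strain, with 6.66 to 6.74 above 6.48 to 6.61 in B6 and 6.78 to 6.85 above 6.53 to 6.65 in BLKS (exact permutation p = 0.00794 and 0.0159, 2-sided, the smallest that these numbers of mice can give). Groups did not overlap with glucose at 7.45% of all probes in B6 and at 13.3% in BLKS, or at 11.7% and 15.5% without both libraries. A_52_P661982, described by the same mRNA, changed by -0.13 over both strains (standard error 0.06, limma adjusted p = 0.129).

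At the 3 probes with the largest strain gaps no glucose response was called with all mice. Their within-strain changes followed the libraries that went against their labels. At A_51_P417251 the change was -1.31 in B6 and 0.59 in BLKS with all mice, and -0.45 and -0.41 without both libraries. Over both strains it was -0.36 (standard error 0.65, limma adjusted p = 0.737) with all mice and -0.43 (standard error 0.14, limma adjusted p = 0.0399), or 1.35-fold lower, without both. The part of the array mates of the B6 mice in this value was not tested.

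In BLKS islets, whose 6330403K07Rik signal was the high one on its arrays, the 4 remaining low-glucose mice (12.84 to 13.05) all lay above the 4 high-glucose mice (12.30 to 12.63), with an exact permutation p of 0.0286 (2-sided, the smallest that 4 against 4 can give) and a limma adjusted p of 0.266. A_51_P443443 and A_52_P137500 changed by 0.05 (95% interval -0.07 to 0.17) and 0.04 (-0.05 to 0.13) over both strains without both libraries. A_51_P368151 changed by -0.11 with all mice (standard error 0.06, limma adjusted p = 0.163).

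**Figure D3:**
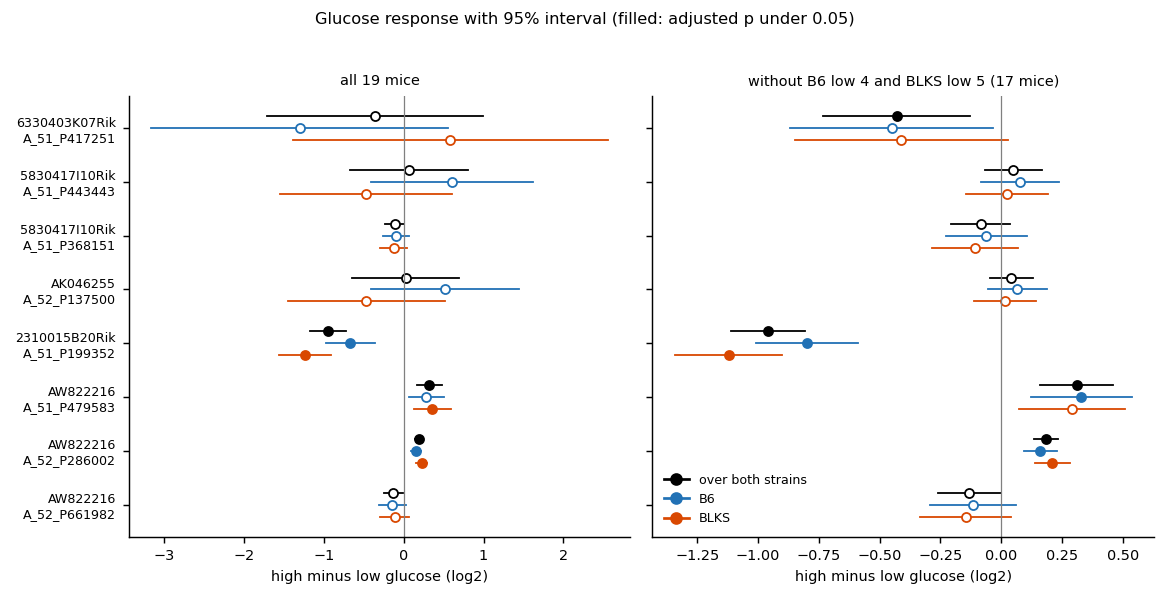
High minus low glucose (log2) for each probe over both strains (black), in B6 (blue) and in BLKS (orange), with 95% intervals, for all 19 mice on the left and for the 17 mice without the libraries labelled B6 low 4 and BLKS low 5 on the right, where the axis is shorter. Filled points passed a limma adjusted p of 0.05, and A_51_P199352 lies at -0.95 on the left and -0.96 on the right for both strains together.

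Names ending in Rik were carried by 6351 of the 29332 tested probes. Of these, 16 differed by over 2-fold between the strains in high glucose, compared with 107 over all probes, and 10.3% were called for strain in high glucose compared with 11.1% of all probes. For glucose over both strains 22.6% of the Rik probes were called. Of the 4608 such names, 3561 now have another symbol, 606 keep their name in the annotation and 441 were not matched, so that Mrln shares its renaming with most of them and 6330403K07Rik and 5830417I10Rik belong to the fewer that keep the clone name.

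Genes beside the members were not chosen by strain, and their strain differences could be tested. The 5 nearest genes with a tested probe on each side of the 4 placed members made 40 genes. They lay up to 2595 kb from the member (Pax3). Each was read by its brightest tested probe, while the share over all probes includes dim ones. In high glucose 7 of them were called, 2 higher and 5 lower in BLKS, and their median difference was -0.03, while 11.1% of all probes were called (4.98% higher and 6.13% lower) and the median over all probes was 0.01. A fixed block for the pair of arrays gave 13 calls and a random block 14. The count fell to 3 without B6 high glucose 1, BLKS high glucose 2 or BLKS high glucose 4, and to 4 without B6 high glucose 4, BLKS high glucose 1 or BLKS high glucose 3. Over both glucose concentrations 11 were called, compared with 18.7% of all probes. Without both libraries 10 were called in high glucose and 14 over both concentrations. Shares of all probes are not given for these fits, the block fits or those without 1 mouse, so nothing is read from their counts. No neighbour differed by over 2-fold in high glucose.

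Around 6330403K07Rik 0 of the 10 neighbours were called in high glucose by limma, with 1 at an unadjusted p under 0.05, and 1 was called by the linear model of the study's methods. Without both libraries 1 was called in high glucose. Mis12, a kinetochore gene 4.57 kb from it, differed by -0.0042 (standard error 0.04). C1qbp differed by -0.01 and Nup88, a nuclear pore gene, by -0.05. The 10 neighbours differed by -0.25 to 0.11 and lay up to 1120 kb away.

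Around 5830417I10Rik, 3 of 10 neighbours were called in high glucose (4 without both libraries). Syt11, which encodes a synaptotagmin and lies 1.9 kb away, was lower in BLKS, with a difference of -0.64 (standard error 0.14, limma adjusted p = 0.00911), in the direction of A_51_P443443. Rit1, a small GTPase gene, was lower (-0.25, limma adjusted p = 0.0359) and Arhgef2 was higher (0.23, limma adjusted p = 0.0462). The calls of Rit1 and Arhgef2 were lost in 7 and 15 of the 19 fits without 1 mouse. Gene 1500004A13Rik overlaps the interval of 5830417I10Rik and differed by -0.08 (limma adjusted p = 0.346).

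Beside Mrln, Slc16a9 of the monocarboxylate transporter family was lower in BLKS (-0.49, standard error 0.13, limma adjusted p = 0.0188) and also fell with glucose over both strains (-0.43, limma adjusted p = 0.00136). Ank3, which encodes ankyrin-G and lies 177 kb from Mrln, was lower (-0.37, limma adjusted p = 0.024). Bicc1, 703 kb from Mrln, was also lower (-0.14, limma adjusted p = 0.0497), a call lost in 14 of 19 fits without 1 mouse. Beside Obsl1, Chpf, which encodes a chondroitin polymerizing factor, was higher in BLKS by 0.36 (standard error 0.07, limma adjusted p = 0.00358) and rose with glucose by 0.42 (limma adjusted p = 4.19e-06). Tmem198, 0.132 kb from Obsl1, differed by 0.34 between the strains (limma adjusted p = 0.134) and rose with glucose by 0.29 (limma adjusted p = 0.0361). Over both strains 7 of the 40 neighbours were called for glucose, 2 rising and 5 falling, compared with 22.3% of all probes. Without both libraries 5 were called, compared with 21.9% of all probes.

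**Figure D4:**
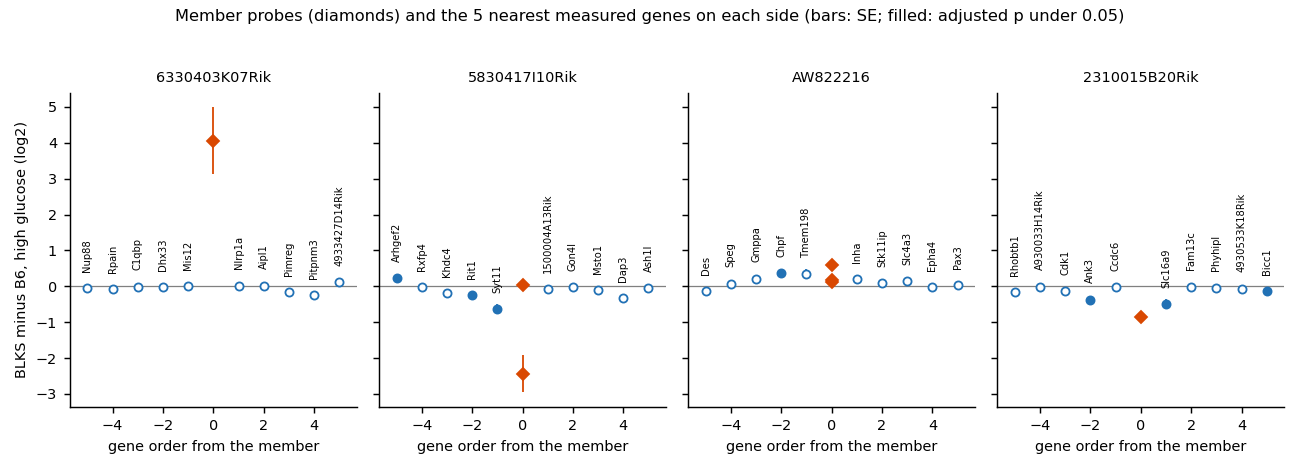
BLKS minus B6 in high glucose (log2) for the probes of 4 members (orange diamonds, at position 0) and for the 5 nearest genes with a tested probe on each side (blue circles, by order along the chromosome), with bars for the standard error and filled circles for a limma adjusted p under 0.05. The neighbours lie between -0.64 (Syt11) and 0.36 (Chpf), while A_51_P417251 lies at 4.06 and A_51_P443443 at -2.44.

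The probes most like each member were found by the correlation of log2 signals over 19 mice, which share arrays and the strain split. For 6330403K07Rik they were those of Nipsnap1 (Pearson r = 0.990), Pcp4 (r = 0.989) and Glo1 (r = 0.987). H2-Q1, a histocompatibility gene whose BLKS minus B6 difference in high glucose was -4.87, was nearest to both A_51_P443443 (r = 0.996) and AK046255 (r = 0.996). Nearest to Mrln were the unnamed cDNAs AK041861 (r = 0.962) and AK086852 (r = 0.960). All of these correlations span both strains.

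Within groups the members did not keep these relations. Over all 19 mice A_51_P417251 and A_51_P443443 had r = -0.987, and A_51_P443443 and A_52_P137500 r = 0.992. For deviations from the group means in the 17 mice left without both libraries, the same pairs had r = -0.306 and -0.191. Nearest to 6330403K07Rik by such deviations was Mtap4 (r = 0.863), nearest to A_51_P443443 was Pcnt2 (r = 0.890) and nearest to A_52_P137500 was Btbd3 (r = 0.796). Each of these was picked as the highest r among all tested probes of other genes, over few mice that share arrays. Whether such values exceed what picking the highest gives was not tested.

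Markers of other cell types differed with strain and glucose, and their part in the members' values was not tested. Of all 29332 probes, 3124 were called lower and 2365 higher in BLKS over both glucose concentrations with all mice. With glucose over both strains 11.5% fell. The share for strain without both libraries is not given, and each list is short. Of 6 stromal markers 4 were lower in BLKS over both glucose concentrations, among them Col1a1 (-0.89, limma adjusted p = 0.0112), and 3 without both libraries, with summed intensities of 3251 to 6839 in B6 and 1411 to 3131 in BLKS high-glucose mice. Of 4 endothelial markers 3 were lower in BLKS and 2 fell with glucose, the same counts as without both libraries, with sums of 520.4 to 626.4 in B6 and 415.3 to 477.4 in BLKS islets in high glucose. Of 5 macrophage markers 1 was lower in BLKS and 2 fell with glucose (1 and 1 without both libraries), with sums of 1212 to 1376 and 1118 to 1252.

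Markers of exocrine cells had overlapping sums in high glucose. Those of 8 acinar markers were 2104 to 2599 in B6 and 2094 to 3255 in BLKS, with 2 falling with glucose and 0 called for strain by limma (2 at an unadjusted p under 0.05, and 3 called by the linear model of the study's methods). Without both libraries 4 acinar markers were higher in BLKS by limma, namely Prss2 (0.70), Cpa1 (0.47), Cpb1 (0.24) and Pnlip (0.22), and 2 fell with glucose. Those of 2 duct markers were 170.1 to 186.2 and 184.0 to 200.8, with 0 called for strain or glucose by limma or by that linear model (by limma 0 at an unadjusted p under 0.05, and by the linear model 1 for strain). Without both libraries Sox9 was higher in BLKS (0.17, limma adjusted p = 0.00403). Pdx1, Krt19, Krt7 and Esam were not found on the array, and Cftr and Itgam were too dim to test. Of 9 endocrine markers, Slc2a2, the glucose transporter of beta cells, fell with glucose (-0.57) and was lower in BLKS (-0.42), and Mafa fell with glucose (-0.18), a call lost without both libraries (limma adjusted p = 0.0714). The other 7 could show little or no change, since Ins1, Ins2, Iapp, Gcg and Chga were saturated on all 40 channels, Sst on 30 and Ppy on 23. In bulk islet RNA, fewer cells of a type and less RNA per cell cannot be told apart.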

How the data were processed

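RNA of islets from 19 mice was hybridised to 20 Agilent 2-colour whole mouse genome arrays (40 channels, dyes swapped within a pair of arrays). B6 low glucose 1 was on 4 channels and was counted as 1 mouse. The deposited scanner files hold intensities from Agilent Feature Extraction (9.5.3.1 in the file headers, 8.1 in the submitters' processing notes). Per the file headers, the authors subtracted no background and normalised the dyes within each array by linear and LOWESS steps. The authors also deposited log2 values, used as an alternative, which match unscaled log2 mean signals of each mouse averaged across its channels.

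Control spots and outlier spots were left out. The log2 processed signals of a probe were averaged over the dyes of a mouse after Aquantile scaling between arrays. A probe was tested if at least 4 mice were well above background. That call was given to 83.9% of negative control spots in Cy3 and to 0.318% in Cy5, so it filters little in Cy3. limma 3.58.1 (R 4.3.3, data.table package 1.17.8) fitted a mean for each of the 4 groups to all 29332 probes, with Benjamini-Hochberg adjustment and a threshold of 0.05. Second values came from exact permutation tests over mice. Tables and plots used Python 3.11.15, numpy 2.4.6, pandas 2.3.3, scipy 1.17.1 and matplotlib 3.10.9.

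Named beyond the members were the 5 nearest genes on each side with a tested probe (the brightest probe stands for a gene), the 3 probes of other genes most like each member, and lists of cell type markers. The members and lists were chosen with earlier results of these data known. On simulated data with 200 changed probes of 29329, the glucose comparison over both strains recovered 98% at a log2 change of 0.5, with 6.67% of calls false, and 99% at 1, with 5.71% false. The simulated mice were drawn independently, without the correlation between mice that shared arrays. These shares of false calls therefore do not cover that correlation.

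Replicate numbers pair mice of the strains that shared arrays. Deviations from the group means correlated within the 9 pairs at r of 0.02 to 0.69 (median 0.48), compared with a median of -0.06 between other mice. Both mice of such a pair were of the same glucose group, and the main fit had no block for it. Standard errors and p-values for glucose can therefore be too small. Alternatives changed the scaling, background correction, filter, dye, outlier spots, value table, test, block, arrays and mice. The number of arrays limits the precision.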

Additional observations from a re-analysis of the deposited data

Results flagged for a closer look

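A mouse that lay far from the others of its group was found in 10 of the 32 sets of values looked at (8 probes in 4 groups of 4 or 5 mice), where chance gives about 1 in 20. Each value below is the gap to the nearest other mouse as a share of the whole range of the group. Of the 10, 7 came from the 2 libraries that went against their labels. For the library labelled B6 low glucose 4 the shares were 0.862 at 6330403K07Rik, 0.948 at A_51_P443443, 0.889 at AK046255 and 0.742 at Mrln. For the library labelled BLKS low glucose 5 they were 0.959, 0.840 and 0.929 at the first 3 of these probes.

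The others were small in log2 signal. At A_51_P368151, B6 low glucose 1 read 9.32 below the 9.68 to 9.80 of the other mice of its group (0.762), and BLKS high glucose 2 read 9.35 below 9.65 to 9.67 (0.958). At AK046255, B6 high glucose 3 read 8.52 above 8.31 to 8.36 (0.756).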

How the results depend on the processing

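Over both strains 3 member probes were called for glucose, and 3 to 4 under every alternative, Mrln (A_51_P199352), A_52_P286002 and A_51_P479583 being called in each. In B6 the count of 2 became 1 without scaling between arrays, with the authors' log2 table, in Cy3 alone and with the linear model of the methods. In BLKS the count of 3 became 1 without scaling and with the authors' table. With the array pair as a replicate block, neighbouring genes called for strain in high glucose went from 7 to 14 (random block) and 13 (fixed block), and over both glucose concentrations from 11 to 19 (random block). Without scaling the count in high glucose was 4, with the authors' table it was 3, and over both concentrations that table gave 6. Leaving out 1 mouse gave 3 to 10 in high glucose and 7 to 12 over both, with 7 without BLKS low glucose 2, BLKS low glucose 3 or B6 high glucose 4. The shares of all probes called for strain under these alternatives are not given. Glucose values that were not called changed sign at the 3 probes with the largest strain gaps. Over both strains A_51_P417251 (-0.36) ranged from -0.86 to 0.068 without 1 mouse, A_51_P443443 (0.06) from -0.20 to 0.31 and was -0.0302 with the linear model of the methods, and A_52_P137500 (0.02) ranged from -0.20 to 0.27. The last was -0.0232 without scaling, -0.00455 with quantile normalisation, -0.0207 with the authors' table and -0.0446 with that linear model. In BLKS, the values without both libraries were -0.41 at A_51_P417251 (0.59 with all mice), 0.0242 at A_51_P443443 (-0.47) and 0.0160 at A_52_P137500 (-0.47), and leaving out BLKS low glucose 5 alone gave the same values. Leaving out 1 mouse gave ranges in BLKS of -0.41 to 0.86, -0.67 to 0.02 and -0.62 to 0.02. The causes of these changes were not tested. Signals of A_51_P443443 and AK046255 in BLKS near the negative controls limit the size of their gaps.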
